A study of Homo sapiens with 42 samples.

Results

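The 10 genes described here are the insulin-like growth factors IGF1 and IGF2, the receptor gene IGF1R and the binding protein genes IGFBP1 to IGFBP7. They were chosen by symbol, as the 10 matching entries among 28266 in the table of raw counts, and were followed through all 12 groups of the study. The study depleted COPI, the coat of vesicles that return from the Golgi to the endoplasmic reticulum, in senescent and non-senescent human fibroblasts, and sequenced poly(A) RNA from 42 libraries at day 10. IMR90 is a line of human lung fibroblasts. IMR90 ER:RAS carries a retroviral transgene in which oncogenic RAS is fused to an oestrogen receptor domain, so that 4-hydroxytamoxifen (4OHT) activates RAS and leads to oncogene-induced senescence (OIS). The ER:RAS line was given DMSO or 4OHT at 100 nM. The parental IMR90 line was given DMSO or, for 24 h, the DNA-damaging drug bleomycin at 50 µg/ml. After 7 days, doxycycline at 1 µg/ml induced a control shRNA, COPB2 shRNA 1 or COPB2 shRNA 2 for 72 h, and the controls received doxycycline too. COPB2 encodes a COPI subunit. There were 3 libraries in each of the 6 ER:RAS groups and 4 in each of the 6 IMR90 groups. The labels do not say whether replicates were separate cultures, but the study describes the replicates of the knockdown comparisons in senescent cells as independent experiments. It gives n = 3 for bleomycin too, where 4 libraries per group are used here. The p-values rest on a spread between libraries that was estimated over all groups of a fit together. OIS and bleomycin-induced senescence were each studied in a different line, so that inducer and line cannot be told apart where both are compared.

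IGF1 and IGF2 are secreted growth factors that bind the tyrosine kinase receptor encoded by IGF1R, which signals through insulin receptor substrates to PI3K, AKT and mTOR and through SHC and GRB2 to the RAS and MAPK cascade. The binding proteins IGFBP1 to IGFBP6 hold IGFs in the extracellular space with high affinity and set how much ligand is free, whereas IGFBP7 binds IGFs weakly. Pregnancy-associated plasma proteins cleave some of them and release the ligand, and stanniocalcins inhibit these proteases. Several binding proteins are known parts of the senescence-associated secretory phenotype of fibroblasts.

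Sequences of 2 kinds are shown. The first are the guide strands of both COPB2 shRNAs, shown because they define the knockdown groups; their seed, bases 2 to 8, is in capitals.
COPB2.1: tTAAATATctttacaatgctgt
COPB2.2: tAATTGAAcactctaatctgca
These names are those of the study's oligonucleotide table, and the labels number the shRNAs 1 and 2. The site of the first lies at chr3:139088345-139088366 (GRCh37, minus strand) in coding exon 11 of the canonical COPB2 transcript, and that of the second at chr3:139097987-139098008 in coding exon 4. The full guides matched 11 and 15 of 18 annotated COPB2 transcripts and 0 transcripts of the 10 genes.

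The second is a set of promoters, the 250 bases before the RefSeq gene start (GRCh38.p14). Those of IGFBP2 and IGFBP6 are shown because both were called lower in OIS with the control shRNA (edgeR adjusted p below 0.05). That of IGFBP3 is shown because it was called higher in both senescence models. The IGFBP6 call and the IGFBP3 call after bleomycin depended on single libraries, as given below. Capitals mark the GC box GGGCGG on either strand.
IGFBP2, chr2:216632578-216632827, plus strand: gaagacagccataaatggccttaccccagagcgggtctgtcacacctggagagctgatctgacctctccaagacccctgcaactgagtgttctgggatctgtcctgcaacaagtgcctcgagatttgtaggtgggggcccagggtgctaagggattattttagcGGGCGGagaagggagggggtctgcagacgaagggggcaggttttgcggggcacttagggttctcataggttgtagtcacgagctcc
IGFBP6, chr12:53097417-53097666, plus strand: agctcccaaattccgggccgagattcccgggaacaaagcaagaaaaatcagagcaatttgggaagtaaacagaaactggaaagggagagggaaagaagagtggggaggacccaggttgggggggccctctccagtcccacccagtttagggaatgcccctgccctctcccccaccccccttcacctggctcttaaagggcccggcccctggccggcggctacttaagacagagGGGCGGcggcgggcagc
IGFBP3, chr7:45921273-45921522, minus strand: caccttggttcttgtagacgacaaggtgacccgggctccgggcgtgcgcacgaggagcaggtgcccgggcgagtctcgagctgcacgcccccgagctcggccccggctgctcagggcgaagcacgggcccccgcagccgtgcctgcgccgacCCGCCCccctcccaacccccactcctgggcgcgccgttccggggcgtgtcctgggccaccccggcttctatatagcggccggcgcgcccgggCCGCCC
The GC box occurred 86 bases before the start of IGFBP2, 17 bases before that of IGFBP6, and 98 and 6 bases before that of IGFBP3. It was present in 42.3% of the 27305 RefSeq promoters of the same length. The AP-1 motif TGANTCA (6.6% of promoters), CCAAT (33%), TATAAA (11.1%) and the E-box CACGTG (6.49%) were searched on both strands and were not found in these 3 windows. The GC content of the windows was 56.8% for IGFBP2, 61.2% for IGFBP6 and 76.0% for IGFBP3. Among windows not shown, the GC box also occurred before IGF1R, which was called lower in OIS, and before IGFBP4, which was called higher. A link between these motifs and the levels was not tested.

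Some of the genes lie close together or overlap others. In RefSeq on GRCh38.p14, IGFBP2 (chr2:216632828-216664436) and IGFBP5 (chr2:216672105-216695549) are 7669 bases apart on opposite strands, and IGFBP3 (chr7:45912245-45921272) lies 18585 bases from IGFBP1 (chr7:45888488-45893660). IGF2 (chr11:2129117-2149566) overlaps INS-IGF2, MIR483 and the antisense gene IGF2-AS. IGFBP7 (chr4:57030773-57110385) overlaps POLR2B, and IGF1R (chr15:98648539-98964530) overlaps IRAIN. IGF1 lies at chr12:102395874-102481839, IGFBP4 at chr17:40443450-40457725 and IGFBP6 at chr12:53097667-53102340. How the counting treated overlapping genes is not given in the sources used here, so the levels of IGF2, IGF1R, IGFBP5 and IGFBP7 could include or lack reads of their neighbours.

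Libraries held between 13148200 and 23597300 counts, rounded to 6 digits, and 3 counts corresponded to 0.11 to 0.271 CPM (counts per 1000000 of the TMM-scaled library). COPB2 itself was at 33.9 to 122 CPM in 28 libraries with a COPB2 shRNA, against 267 to 620 CPM in the other 14. HRAS was at 2570 to 6780 CPM in ER:RAS and 23 to 175 CPM in IMR90. CDKN1A, the p21 cell cycle inhibitor, was at 2670 to 7330 CPM with 4OHT against 547 to 1220 CPM with DMSO, and at 2040 to 4580 CPM after bleomycin against 320 to 937 CPM. Fibroblast markers summed to 8250 to 27900 CPM over all groups and leukocyte markers to at most 3.71 CPM. Epithelial markers summed to 51.8 to 283 CPM and endothelial markers to 7.77 to 87.6 CPM. Libraries also differed in GC balance: GC-rich genes (at least 60% GC) minus GC-poor genes (at most 40%) ranged from -1.20 to 2.13 on the log2 scale across the 42 libraries. ER:RAS 4OHT control replicate 1 stood apart, with the lowest TMM factor (0.611) and the highest GC balance (2.13).

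Per kilobase of transcript, IGFBP4 had the highest mean of the 10 genes in every group, narrowly so over IGFBP5 in IMR90 DMSO with shRNA 2 (39.5% against 39.2% of the sum). With the control shRNA, IGFBP4 made up 44% of the summed CPM per kilobase in ER:RAS DMSO, 55.4% in OIS, 42.7% in IMR90 DMSO and 49.1% after bleomycin. IGFBP5 made up 23.3%, 27.1%, 35.1% and 20.6% in the same order. IGFBP2 came next in DMSO and bleomycin, with 20.4%, 13.3% and 17.4%, but was at 3.31% in OIS. After bleomycin with shRNA 1 and 2, IGFBP2 (20.7% and 20.6%) was ahead of IGFBP5 (19.3% and 13.2%). With the control shRNA, IGFBP7 held 10.2% in OIS, against 3.91% in ER:RAS DMSO, 3.45% in IMR90 DMSO and 6.98% after bleomycin. As counted, the binding proteins thus formed nearly the whole pool, while IGF1R held 0.0282% to 0.302% of it in these 4 groups.

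**Figure D1:**
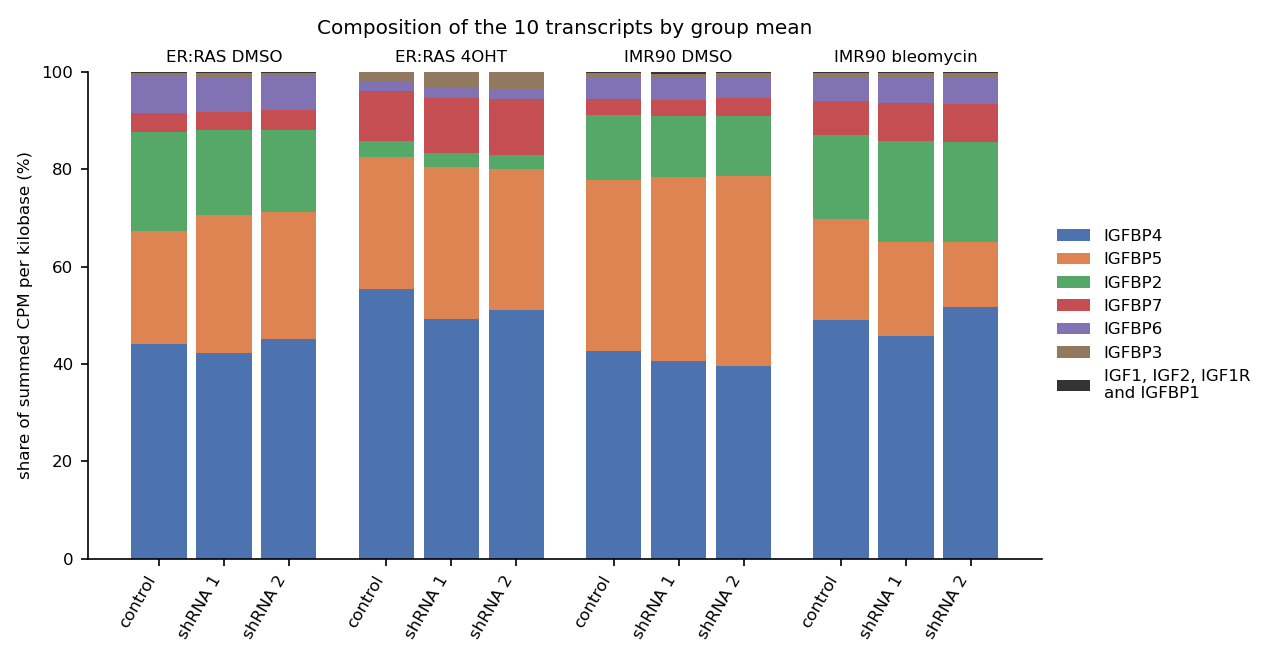
Stacked bars give the share (%) of each gene in the summed CPM per kilobase of the 10 genes, by group mean (3 ER:RAS or 4 IMR90 libraries per bar). In OIS the IGFBP2 segment shrank to 3.31% with the control shRNA and the IGFBP7 segment reached 10.2%.

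The genes differed in how far they moved over the 12 groups. The highest group mean was 16.7 times the lowest for IGF2, 9.24 times for IGFBP2, 6.93 times for IGFBP7, 6.86 times for IGFBP3 and 6.05 times for IGF1R. For IGFBP6, IGFBP4 and IGFBP5 this ratio was 3.53, 3.08 and 2.34. When groups were ordered by mean CPM, most neighbouring groups overlapped. IGF2, IGFBP3 and IGF1R each had 1 gap among the 11 steps, between the 3 OIS groups and the other 9, with OIS high for IGF2 and IGFBP3 and low for IGF1R. IGFBP7 had its gap between the 6 senescent groups and the 6 DMSO groups. IGF1 had its gap above the OIS groups, which had 0 counts. IGFBP5 had its gap between IMR90 DMSO with the control shRNA (mean 4320 CPM) and with shRNA 1 (4040 CPM). IGFBP1, IGFBP2, IGFBP4 and IGFBP6 had no gap, so that libraries of neighbouring groups in their order overlapped.

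**Figure D2:**
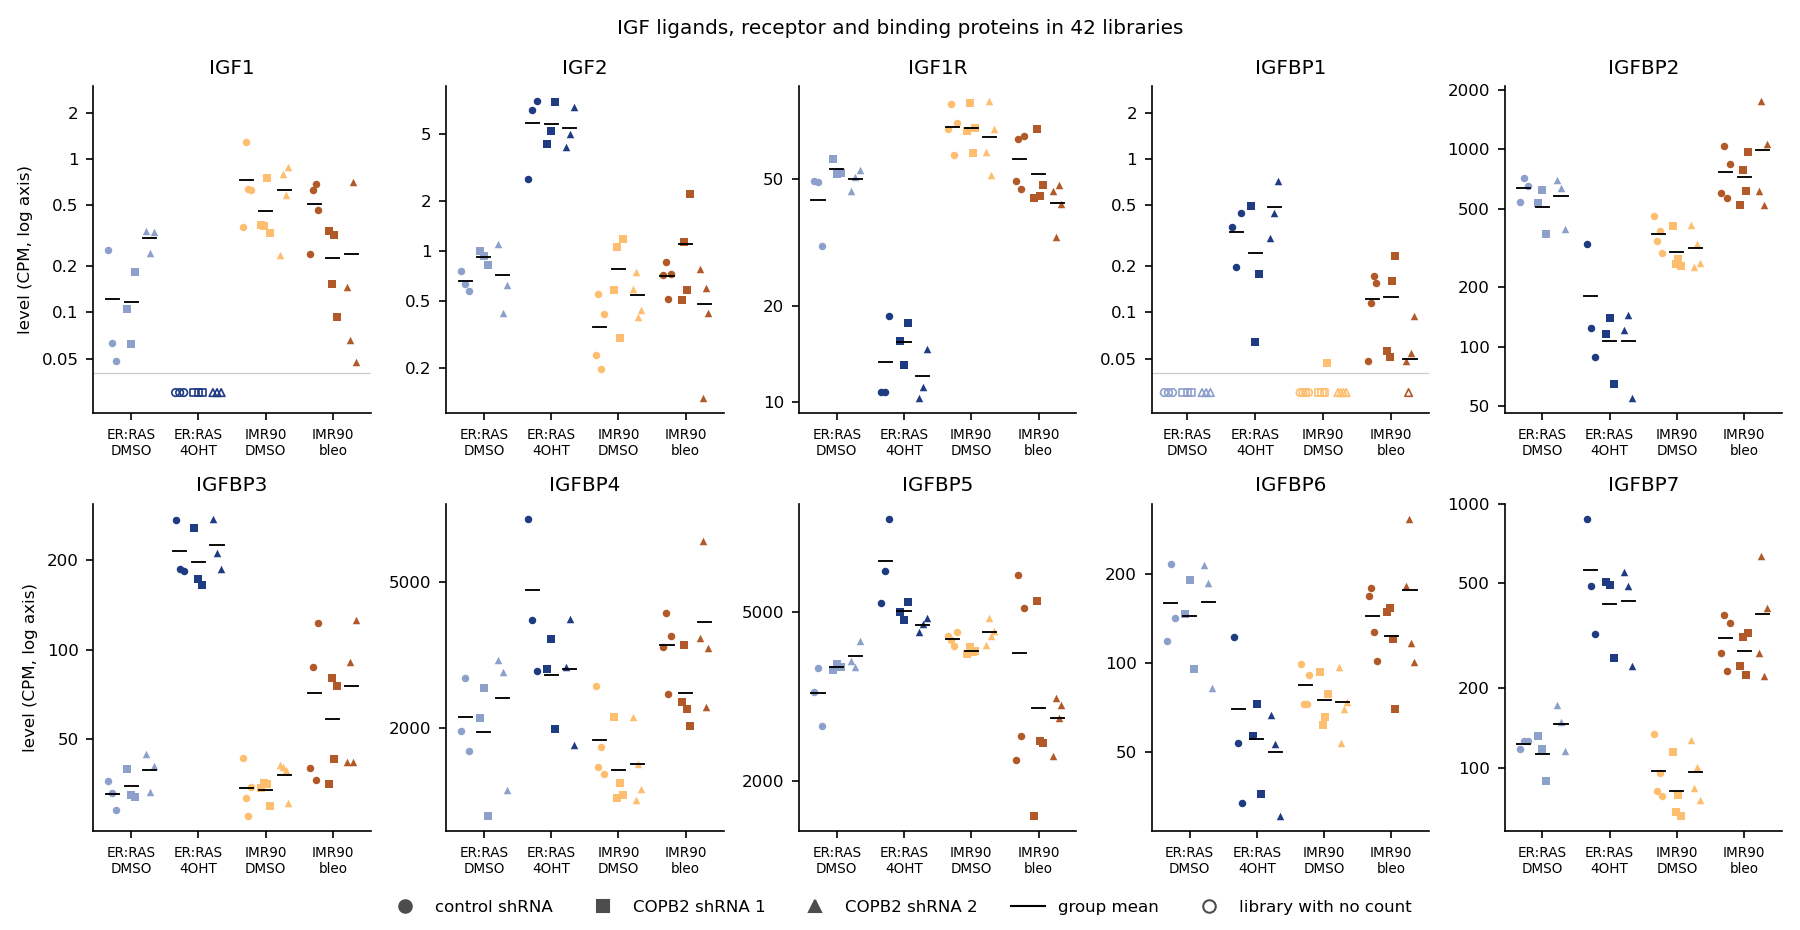
Each point is the level of a gene in 1 library (CPM, log axis), by cell state on the x axis and by shRNA through the symbol, and black bars are group means. Open symbols at the bottom are libraries with 0 counts. The 9 OIS libraries of IGF2 and IGFBP3 lie above all others and those of IGF1R below.

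The first comparison asked how OIS changed the 10 genes with the control shRNA. IGF2 and 4 binding proteins (IGFBP3, IGFBP4, IGFBP5 and IGFBP7) rose, and IGF1R, IGFBP2 and IGFBP6 fell. All 8 genes that passed the filter on low counts were called at an adjusted p below 0.05 by edgeR's quasi-likelihood test with Benjamini-Hochberg adjustment, where 35.7% of 14297 genes were called, 15.5% higher and 20.2% lower. Their median log2 fold change was 1.00, against -0.08 for all genes tested. Libraries of both groups did not overlap for 7 of these 8 genes (38.5% of all genes), with IGFBP6 the exception. IGF1 and IGFBP1 were below the filter.

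Of the ligands, IGF1 was barely detectable. It had 0 counts in all 9 OIS libraries, with any shRNA, and 5, 1 and 1 counts in the ER:RAS DMSO control libraries. With the control shRNA, the observed DMSO level was 1.75 times that of a floor of 3 counts over the OIS group. The error of the few DMSO counts is not included. IGF2 was at 0.764, 0.634 and 0.577 CPM in DMSO and at 2.71, 7.01 and 7.92 CPM in OIS. All OIS libraries were higher, replicate 1 least so. The log2 fold change was 3.07 (SE 0.46, edgeR adjusted p = 9.27e-05), or 8.38-fold. The antisense gene IGF2-AS had 4 to 14 counts in the 9 OIS libraries and 0 to 4 in the other 33, and INS-IGF2 was listed at 0 throughout. If the counting did not use strand, reads of IGF2 and IGF2-AS cannot be told apart. Counts of IGF2 stayed low, at 30 to 132 per OIS library, and could lack reads shared with the overlapping genes.

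IGF1R, the signalling receptor, was at 49.5, 49.0 and 30.9 CPM in DMSO and at 10.7, 10.8 and 18.7 CPM in OIS. The groups did not overlap, and replicate 3 was the lowest of the DMSO libraries and the highest of the OIS libraries. IGF1R fell by 1.76 on the log2 scale (SE 0.28, edgeR adjusted p = 0.000162), to 0.295 of the DMSO level.

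IGFBP3, the main IGF carrier in serum, changed most clearly among the binding proteins. It was at 36.2, 33.1 and 28.9 CPM in DMSO and at 273, 187 and 183 CPM in OIS. Every OIS library lay far above the DMSO libraries, for a log2 fold change of 2.61 (SE 0.23, edgeR adjusted p = 3.95e-07). IGFBP7, a secreted protein long studied as a senescence factor, was at 118, 126 and 126 CPM in DMSO and at 880, 489 and 322 CPM in OIS. Its DMSO libraries were close together and its OIS libraries widely spread, but the groups did not overlap. IGFBP7 rose by 2.07 on the log2 scale (SE 0.34, edgeR adjusted p = 0.000207).

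IGFBP5, which binds extracellular matrix, was at 3241, 3689 and 2697 CPM in DMSO and at 5245, 6216 and 8261 CPM in OIS. The lowest OIS library was above the highest DMSO library, and IGFBP5 rose by 0.95 (SE 0.20, edgeR adjusted p = 0.0016). IGFBP4, which mostly restrains IGF action until it is cleaved, was at 1958, 2740 and 1730 CPM in DMSO and at 7430, 3946 and 2859 CPM in OIS. The groups were barely apart, and the highest value came from the OIS library that stood apart in GC balance. The log2 fold change of IGFBP4 was 1.04 (SE 0.38, edgeR adjusted p = 0.046). Without that library it was 0.64 (edgeR adjusted p = 0.241), and the call held in 2 of the 6 fits that left out 1 library.

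IGFBP2 and IGFBP6 moved the other way. IGFBP2 was at 541, 713 and 654 CPM in DMSO and at 332, 125 and 88.8 CPM in OIS. The groups did not overlap, and OIS replicate 1 was nearest to DMSO. IGFBP2 fell by 1.93 on the log2 scale (SE 0.43, edgeR adjusted p = 0.0025). The call held in all 6 fits without 1 library, with log2 fold changes from -2.61, without OIS replicate 1, to -1.55. IGFBP6, which prefers IGF2 as ligand, was at 119, 216 and 142 CPM in DMSO and at 123, 53.5 and 33.5 CPM in OIS. Here OIS replicate 1 was above DMSO replicate 1, so the groups overlapped. IGFBP6 fell by 1.30 (SE 0.44, edgeR adjusted p = 0.0328), a call that held in 1 of the 6 fits without 1 library (log2 fold changes from -1.90, without OIS replicate 1, to -0.92, highest edgeR adjusted p = 0.154). With DESeq2 size factors its edgeR adjusted p was 0.0786.

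IGFBP1, which is best known as a liver protein, was found at a trace level in OIS. It had 4, 3 and 7 counts in the OIS libraries and 0 in all 9 ER:RAS DMSO libraries, with any shRNA. With the control shRNA, the observed OIS level was 6.24 times that of 3 counts over the DMSO group.

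Cell type markers also moved in OIS with the control shRNA. Of 10 fibroblast markers, 7 fell and VIM rose (20.2% and 15.5% of all genes), and their sum over all shRNAs was 14600 to 24500 CPM with 4OHT against 16300 to 26300 CPM with DMSO. Of the 6 endothelial markers, 4 of the 5 tested rose and TEK fell, and the sum was 41.9 to 87.6 CPM against 16.2 to 25.6 CPM. CLDN5 made up most of that sum, at 36.1 to 74.9 CPM in the OIS control libraries, whereas CDH5 was at 1.71 to 3.10 CPM and KDR at 0 to 0.198 CPM. Of the epithelial markers, 1 of 3 tested fell (20.2% of all genes), and the sum was 51.8 to 194 CPM against 96.9 to 208 CPM. None of the markers was at 0 in all 42 libraries. In bulk RNA, fewer cells of a type and less RNA per cell cannot be told apart, and the part of these markers in the IGF results was not tested.

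OIS was then compared with DMSO within each COPB2 shRNA. Of the 8 genes tested, 6 were called with each shRNA, where 36.9% of all genes were called with shRNA 1 (15.4% higher, 21.5% lower) and 36.9% with shRNA 2 (14.9% higher, 22% lower). Libraries did not overlap for 7 of the 8 with each (46.5% and 46.2% of all genes). These comparisons use other libraries than the control comparison. IGF2 rose by 2.59 and 2.89 on the log2 scale with shRNA 1 and 2, IGFBP3 by 2.43 and 2.42, and IGFBP7 by 1.81 and 1.46. IGF1R fell by 1.87 and 2.12, IGFBP2 by 2.34 and 2.51, and IGFBP6 by 1.47 and 1.76. In each case the direction was that of the control shRNA.

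IGFBP4 and IGFBP5 were the genes not called with either COPB2 shRNA. The IGFBP4 log2 difference between OIS and DMSO was 0.45 (95% interval -0.37 to 1.26) with shRNA 1 and 0.18 (-0.63 to 0.99) with shRNA 2. For IGFBP5 it was 0.36 (-0.07 to 0.79) and 0.17 (-0.26 to 0.60). The IGFBP5 libraries with 4OHT were at 4977, 4780 and 5270 CPM with shRNA 1 and at 4484, 4679 and 4816 CPM with shRNA 2, against 5245, 6216 and 8261 CPM with the control shRNA. With DMSO they were at 3635, 3762 and 3713 CPM, at 3827, 3710 and 4254 CPM, and at 3241, 3689 and 2697 CPM. All 6 OIS libraries with a COPB2 shRNA were thus above all 6 DMSO libraries with one. Whether the OIS effect itself differed between shRNAs is given with the knockdown results.

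The third comparison asked how bleomycin-induced senescence changed the 10 genes in IMR90 with the control shRNA. IGFBP2, IGFBP3, IGFBP4 and IGFBP7 rose, and no gene of the 10 fell. These were 4 of the 9 genes tested, where 31.2% of 14783 genes were called (15.4% higher, 15.8% lower), and the libraries of both groups did not overlap for 3 of the 9 (28% of all genes), which were IGFBP2, IGFBP6 and IGFBP7. The median log2 fold change of the 9 was 0.83, against -0.01 for all genes. IGFBP1 was below the filter, with 1, 2, 3 and 3 counts after bleomycin and 0 in the 4 DMSO libraries. Its observed bleomycin level was 3.12 times that of 3 counts over the DMSO group.

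IGFBP7 changed most. It was at 134, 81.6, 95.5 and 77.7 CPM in DMSO and at 271, 381, 232 and 354 CPM after bleomycin. All bleomycin libraries were higher, and IGFBP7 rose by 1.65 on the log2 scale (SE 0.28, edgeR adjusted p = 0.000107). This call held in all 8 fits without 1 library.

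IGFBP2 was at 460, 343, 387 and 298 CPM in DMSO and at 602, 1043, 567 and 848 CPM after bleomycin. The groups did not overlap, and replicates 2 and 4 were the higher ones after bleomycin. IGFBP2 rose by 1.01 (SE 0.30, edgeR adjusted p = 0.0141), and without bleomycin replicate 2 the adjusted p was 0.0578. IGFBP4 was at 2596, 1562, 1778 and 1499 CPM in DMSO and at 3327, 4113, 2473 and 3550 CPM after bleomycin. Bleomycin replicate 3 lay below DMSO replicate 1, so these groups overlapped. IGFBP4 rose by 0.83 (SE 0.28, edgeR adjusted p = 0.0243), a call that held in 4 of 8 fits without 1 library (highest edgeR adjusted p = 0.0761, without DMSO replicate 4).

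IGFBP3 was at 43.3, 31.8, 27.6 and 34.7 CPM in DMSO and at 40.1, 87.6, 36.6 and 123 CPM after bleomycin. Only bleomycin replicates 2 and 4 lay above the DMSO libraries. IGFBP3 rose by 1.03 (SE 0.37, edgeR adjusted p = 0.0352), and the call held in 3 of 8 fits without 1 library (highest edgeR adjusted p = 0.167, without bleomycin replicate 4). The same replicate numbers were the higher ones with the COPB2 shRNAs, where IGFBP3 was at 35.5, 80.2, 43.0 and 75.7 CPM with shRNA 1 and at 42.1, 91.2, 42.1 and 126 CPM with shRNA 2. In each shRNA group, replicates 2 and 4 were thus above replicates 1 and 3. The GC balance of the control bleomycin libraries was -0.17, 0.69, -1.10 and -0.95 for replicates 1 to 4.

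IGFBP6 and the ligands and receptor did not pass the threshold with the control shRNA. IGFBP6 was at 99.0, 72.7, 72.5 and 91.2 CPM in DMSO and at 168, 180, 127 and 101 CPM after bleomycin. All its bleomycin libraries were higher, with a log2 fold change of 0.76 (SE 0.30, edgeR adjusted p = 0.0562). IGF1R was at 71.8, 85.8, 59.4 and 75.2 CPM in DMSO and at 49.5, 66.8, 46.8 and 68.5 CPM after bleomycin. These groups overlapped, with a log2 difference of -0.37 (95% interval -0.79 to 0.06).

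IGF2 was at 0.239, 0.550, 0.196 and 0.421 CPM in DMSO and at 0.718, 0.860, 0.518 and 0.726 CPM after bleomycin, a log2 difference of 0.94 (95% interval -0.17 to 2.05). IGF1 had 6, 28, 13 and 12 counts in DMSO and 5, 11, 12 and 9 after bleomycin, a log2 difference of -0.60 (-1.72 to 0.52). The counts of both ligands were thus near the limit of this depth, and those of IGF2 could lack reads shared with overlapping genes.

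IGFBP5 was spread widely after bleomycin with the control shRNA. In DMSO it was at 4392, 4282, 4140 and 4469 CPM, within a narrow band, and after bleomycin at 2242, 6100, 2551 and 5103 CPM. Replicates 1 and 3 lay below every DMSO library and replicates 2 and 4 above. The log2 difference of the means was -0.14 (95% interval -0.75 to 0.46). With shRNA 1 the bleomycin libraries were at 1651, 5285, 2482 and 2451 CPM, and with shRNA 2 at 2285, 3129, 2812 and 3017 CPM, the latter all below the shRNA 2 DMSO libraries.

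Within the COPB2 shRNAs, bleomycin raised 2 of 9 genes with shRNA 1 (35.2% of all genes called, 17.4% higher and 17.8% lower) and changed 6 of 9 with shRNA 2 (40% called, 21.7% higher and 18.3% lower). IGFBP2 rose by 1.23 and 1.59 and IGFBP7 by 1.73 and 1.94 with shRNA 1 and 2. With shRNA 2, IGFBP4 rose by 1.24, IGFBP6 by 1.22 and IGFBP3 by 0.95, and IGF1R fell by 0.73 (edgeR adjusted p = 0.00729). The corresponding values with shRNA 1, where they were not called, were 0.66, 0.69, 0.76 and -0.51. The IGFBP3 call with shRNA 2 held in 2 of 8 fits without 1 library.

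Marker genes moved after bleomycin as well. Of 10 fibroblast markers, 8 fell (15.8% of all genes), and their sum was 8250 to 21100 CPM against 19600 to 27900 CPM with DMSO. Endothelial markers summed to 7.77 to 34.7 CPM against 23.9 to 36.1 CPM, and leukocyte markers to 1.95 to 3.71 CPM against 0.25 to 1.03 CPM. Of those tested with the control shRNA, 2 of 4 endothelial markers rose (15.4% of all genes) and VWF fell, and PTPRC was the leukocyte marker that rose. Of the epithelial markers, 1 of 4 tested rose (15.4% of all genes), and the sum was 64.2 to 283 CPM against 69.8 to 172 CPM. The part of these markers in the results was not tested.

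**Figure D3:**
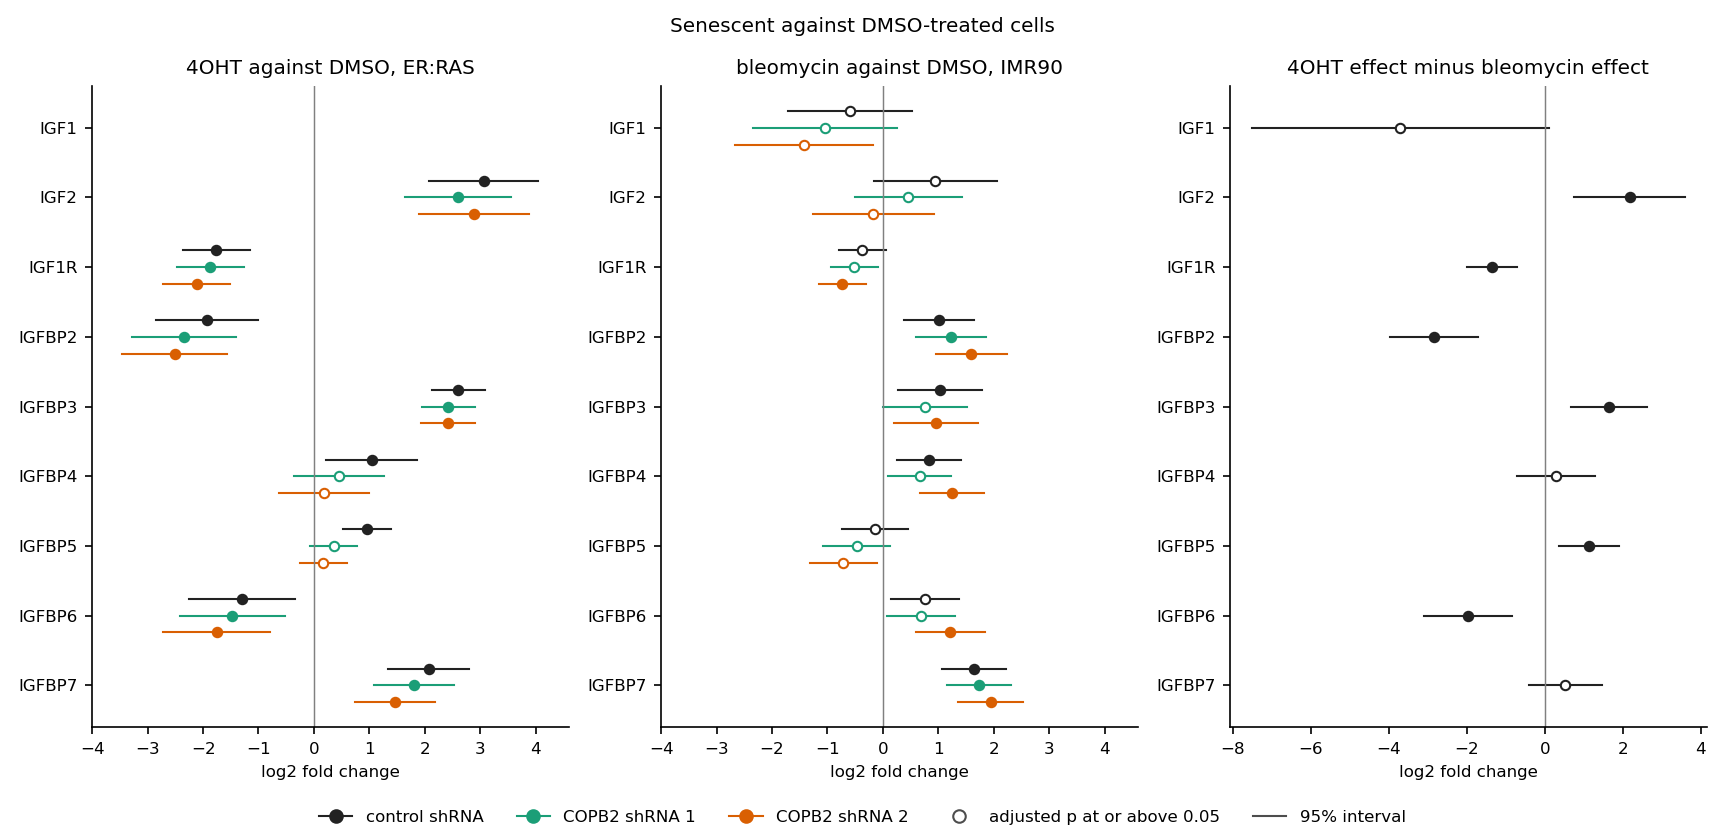
Points are log2 fold changes with 95% intervals for 4OHT against DMSO in ER:RAS (left), bleomycin against DMSO in IMR90 (middle), each by shRNA, and their difference with the control shRNA (right), and open points were not called. IGFBP7 rose in every panel of senescence against DMSO, and IGFBP2 fell in OIS and rose after bleomycin.

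The effects of both senescence models were compared as a difference of log2 fold changes in a fit of all 42 libraries. It was called for 6 of 9 genes, where 20.3% of 15299 genes were called (8.14% positive, 12.1% negative). It was positive, with the OIS effect above that of bleomycin, for IGF2 (2.18, SE 0.70, edgeR adjusted p = 0.0239), IGFBP3 (1.65, SE 0.48, edgeR adjusted p = 0.013) and IGFBP5 (1.15, SE 0.38, edgeR adjusted p = 0.0284). It was negative, with the OIS effect below that of bleomycin, for IGFBP2 (-2.85, SE 0.56, edgeR adjusted p = 0.000267), IGFBP6 (-1.97, SE 0.56, edgeR adjusted p = 0.00982) and IGF1R (-1.35, SE 0.31, edgeR adjusted p = 0.00173). With the control shRNA, IGFBP2 was the gene of the 10 that was called in opposite directions in both models, and with shRNA 2 IGFBP2 and IGFBP6 were.

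For IGFBP4 and IGFBP7, which rose in both models, the difference was 0.29 (95% interval -0.72 to 1.30) and 0.52 (-0.42 to 1.46) and was not called. For IGF1 it was -3.71 (-7.52 to 0.10), set by the 0 counts in OIS. Of the 14 fits without 1 library, 10 kept the call for IGF2 and 9 that for IGFBP5, and all 14 kept the other 4. Without OIS control replicate 1 the difference was -3.61 for IGFBP2 and -2.65 for IGFBP6.

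Both lines were also compared in DMSO with the control shRNA. None of 9 genes was called, where 0.346% of all genes were, and 3 had an unadjusted p below 0.05. The values of these were -2.51 for IGF1, -0.76 for IGF1R and 0.92 for IGFBP6, as ER:RAS minus IMR90 on the log2 scale (edgeR adjusted p = 0.141, 0.147 and 0.371). The libraries of both lines did not overlap for 6 of the 9 (12.7% of all genes). IGF2, IGFBP2 and IGFBP6 were higher in ER:RAS, and IGF1, IGF1R and IGFBP5 were lower. The GC balance of these libraries averaged 0.51 in ER:RAS (range -0.57 to 1.93) and -0.30 in IMR90 (range -0.99 to 0.91). With DESeq2's Wald test IGF1R was called, with a log2 difference of -0.77 (adjusted p just under 0.05).

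The next comparisons asked whether COPB2 depletion changed the 10 genes, taking every COPB2 shRNA and cell state separately. No gene of the 10 was called in any of the 8 comparisons by edgeR without a correction for GC content, nor by DESeq2's Wald test. Few genes were called at all: 0.00699% with each shRNA in ER:RAS DMSO, 0.14% and 0.224% with shRNA 1 and 2 in OIS, 0.00676% with each in IMR90 DMSO, and 0.00676% and 0.0744% after bleomycin. At an unadjusted p below 0.05 there was 1 gene of the 10 in OIS with shRNA 2 (IGFBP5), 1 in IMR90 DMSO with shRNA 1 (IGF2) and 1 after bleomycin with shRNA 2 (IGF1R). The other 5 comparisons had 0. In simulated counts, edgeR recovered 6% of 2-fold changes for shRNA 1 in OIS. The absence of calls there does not exclude changes of this size. A correction for GC content and length, added after the data were seen, called IGFBP4 in OIS with both shRNAs and IGFBP5 with shRNA 2.

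In OIS both shRNAs were compared with the same control libraries. IGFBP5 was lower in all 3 OIS libraries with shRNA 2 than in the 3 control libraries, by -0.52 (95% interval -0.95 to -0.09, edgeR adjusted p = 0.851), and by -0.41 (-0.84 to 0.02) with shRNA 1. Libraries without overlap were seen for 1 of the 8 genes in this comparison with shRNA 2 (7.83% of all genes) and for 0 with shRNA 1 (6.36%). IGFBP4 was at 2895, 3505 and 1987 CPM with shRNA 1 and at 2929, 3957 and 1796 CPM with shRNA 2, against 7430, 3946 and 2859 CPM with the control shRNA. All groups overlapped, with log2 differences of -0.77 (-1.58 to 0.05) and -0.73 (-1.54 to 0.09). Without control replicate 1, the library that stood apart in GC balance, the IGFBP4 differences were -0.30 and -0.26. With all libraries and the correction for GC content and length, the IGFBP4 differences were -0.55 and -0.52.

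IGFBP2 in OIS was at 116, 141 and 65.2 CPM with shRNA 1 and at 122, 145 and 55 CPM with shRNA 2, against 332, 125 and 88.8 CPM. The log2 differences were -0.76 (95% interval -1.66 to 0.13) and -0.77 (-1.67 to 0.13), and control replicate 1 alone lay above all shRNA libraries. Without that library the differences were -0.0135 and -0.0166. IGFBP3 in OIS was at 256, 173 and 165 CPM and at 276, 211 and 187 CPM, against 273, 187 and 183 CPM. Its differences were -0.12 (-0.58 to 0.33) and 0.05 (-0.40 to 0.51), the narrowest intervals in OIS together with IGFBP5.

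Across the 8 comparisons, the interval of the knockdown effect stayed within a 2-fold change in either direction for IGF1R in all 8 and for IGFBP3 in 7. For IGFBP4, IGFBP5 and IGFBP7 this held in 6, for IGFBP6 in 5, for IGFBP2 in 4 and for IGF2 in 2 of the 8. For IGF1, tested in the 4 IMR90 comparisons, it held in 0. Larger changes of the ligands were therefore not excluded by these intervals. After bleomycin, IGF1R was at 46.0, 32.9, 48.0 and 41.7 CPM with shRNA 2 against 49.5, 66.8, 46.8 and 68.5 CPM with the control shRNA. The groups overlapped, and the log2 difference was -0.45 (-0.87 to -0.02, edgeR adjusted p = 0.724).

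The difference of the OIS effect between each COPB2 shRNA and the control shRNA was called for 0 of 8 genes, and that of the bleomycin effect for 0 of 9, where 0% of all genes were called in each of these 4 comparisons. DESeq2's Wald test also called 0. For IGFBP4 this difference was -0.59 with shRNA 1 (95% interval -1.74 to 0.55) and -0.86 with shRNA 2 (-2.01 to 0.29) on the log2 scale, and for IGFBP5 it was -0.59 (-1.20 to 0.01) and -0.78 (-1.39 to -0.18). The last was the only value of the 10 genes in these 4 comparisons with an unadjusted p below 0.05 (edgeR adjusted p = 1). That IGFBP4 and IGFBP5 were called in OIS with the control shRNA and not with a COPB2 shRNA is therefore not shown to be a difference between shRNAs.

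**Figure D4:**
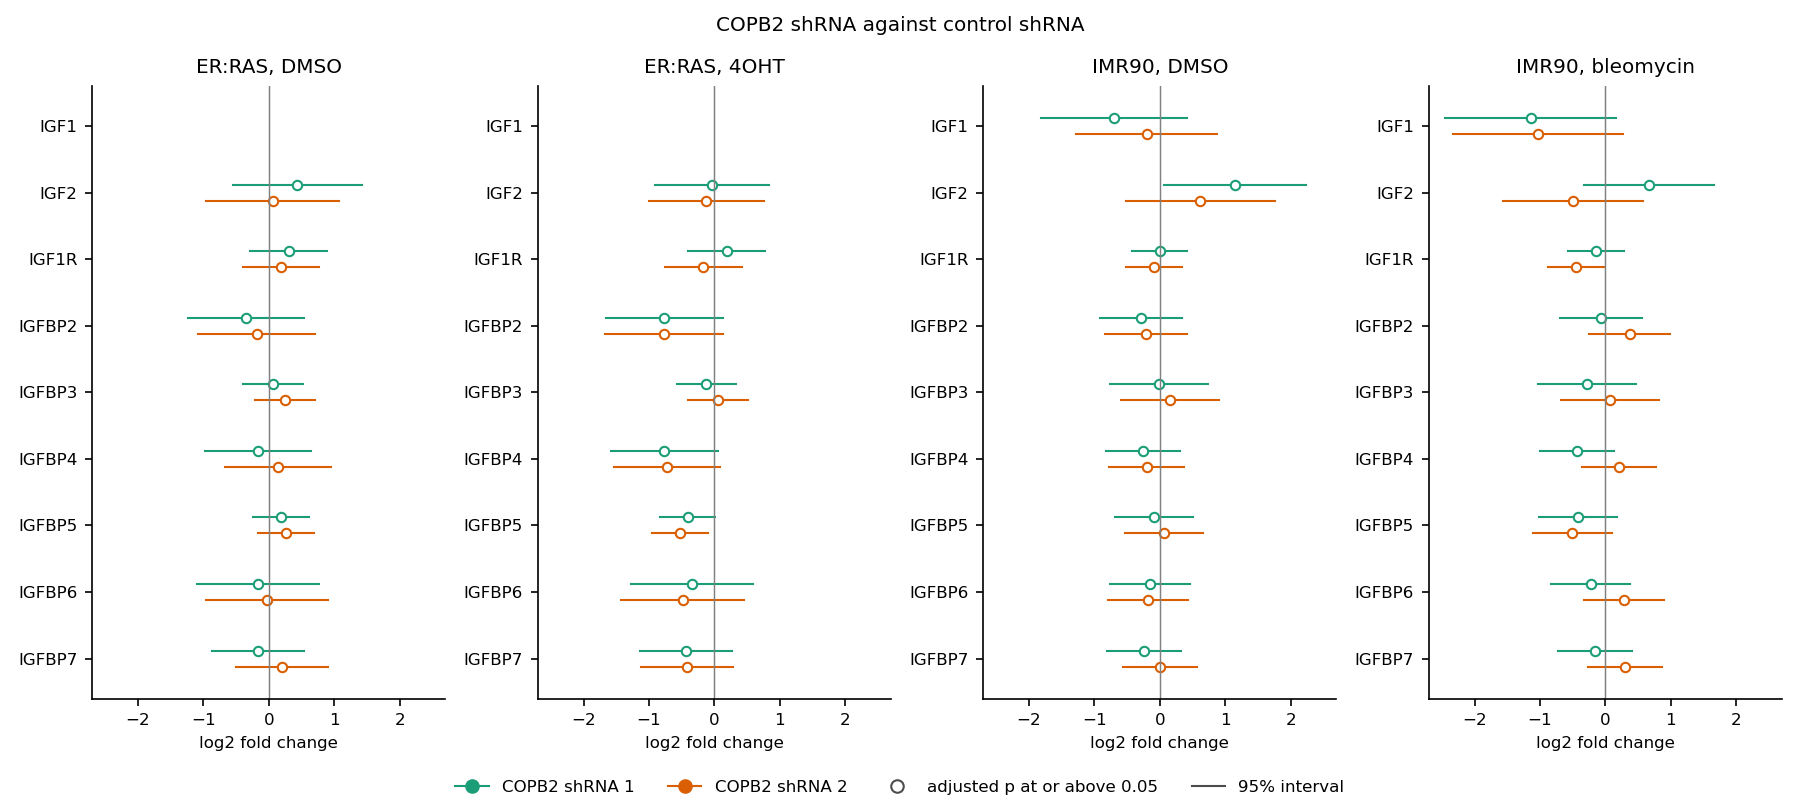
Points are log2 fold changes of each COPB2 shRNA against the control shRNA with 95% intervals, in each of 4 cell states, and all are open because none was called. In OIS the lowest points are those of IGFBP4 and IGFBP2, at -0.77, and without control replicate 1 IGFBP2 was at -0.0135 with shRNA 1 and -0.0166 with shRNA 2.

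The GC balance of the libraries moved with some of these genes. Within groups, over 42 libraries, the level of a gene (log2 CPM, as deviation from the group mean) had a Pearson correlation with the GC balance of 0.902 for IGFBP4, 0.877 for IGFBP6, 0.72 for IGFBP2 and 0.71 for IGFBP7. For IGFBP3, IGFBP5, IGF1R and IGF2 it was 0.262, 0.0583, -0.112 and -0.189. These points share their libraries and their depth and are given as a description. Transcripts of IGFBP2, IGFBP6 and IGFBP4 are GC-rich, at 67.4%, 64.73% and 62.63%, against a median of 48.42% for all genes, whereas that of IGFBP7 is at 52.14%. The library with the highest IGFBP4 level was that with the highest GC balance in 11 of 12 groups.

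The GC balance overlapped between the groups compared, from -0.72 to 2.13 in OIS and from -0.57 to 1.93 in ER:RAS DMSO with the control shRNA. With a correction for GC content and transcript length, an alternative added after the data were seen, all 8 genes called in OIS stayed called, with log2 fold changes of 0.98 for IGFBP4 and -1.70 for IGFBP6. The correction also brought IGFBP4 and IGFBP5 past the threshold in OIS with shRNA 1 (0.62 and 0.70) and shRNA 2 (0.44 and 0.49). After bleomycin with the control shRNA, IGFBP6 (0.76, edgeR adjusted p = 0.0013) and IGF1R (-0.40, edgeR adjusted p = 0.0258) then passed it too. In the knockdown comparisons in OIS, the corrected values of IGFBP4 were -0.55 with shRNA 1 (edgeR adjusted p = 0.0385) and -0.52 with shRNA 2 (edgeR adjusted p = 0.0308), and that of IGFBP5 was -0.50 with shRNA 2 (edgeR adjusted p = 0.0302).

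**Figure D5:**
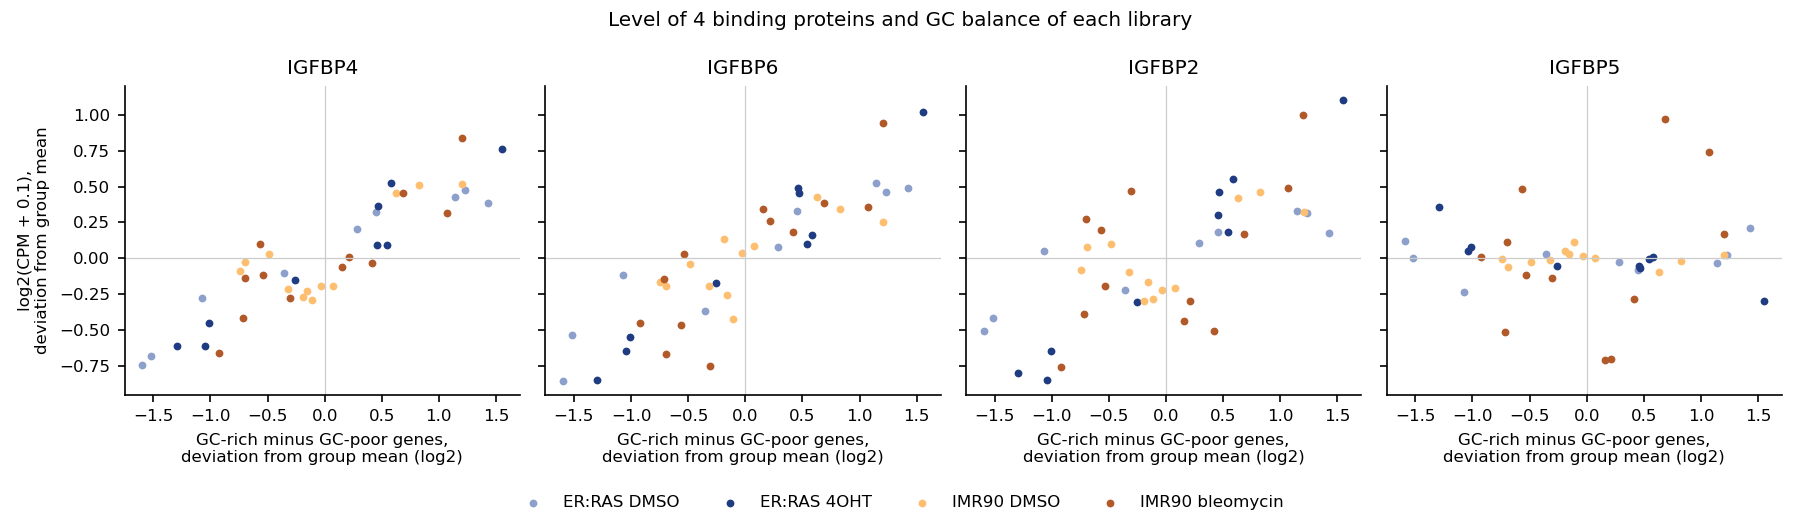
Each point is 1 of 42 libraries, with its GC balance (GC-rich minus GC-poor genes, log2) on the x axis and the level of the gene (log2(CPM + 0.1)) on the y axis, both as deviation from the group mean. IGFBP4 and IGFBP6 climb with the GC balance (r = 0.902 and 0.877) and IGFBP5 does not (r = 0.0583), with its bleomycin libraries the most scattered.

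Other genes of the pathway were followed as lists, with the control shRNA unless stated. The shares of all genes given above apply to each list, 15.5% higher and 20.2% lower in OIS and 15.4% higher and 15.8% lower after bleomycin. Of the proteases that cleave binding proteins and their inhibitors, 3 of 6 tested rose in OIS and 0 fell. After bleomycin 5 of 7 rose and HTRA1 fell (-0.41). With each COPB2 shRNA, 3 of 6 rose and 2 fell in OIS. The shares of all genes there were 15.4% and 21.5% with shRNA 1, and 14.9% and 22% with shRNA 2. STC1, a stanniocalcin that inhibits the PAPPA proteases, was at 46.0, 46.1 and 48.3 CPM in ER:RAS DMSO and at 2912, 3639 and 5523 CPM in OIS, a log2 fold change of 6.34 (SE 0.35, edgeR adjusted p = 4.26e-09). In IMR90, STC1 was at 24.1, 25.1, 21.2 and 26.6 CPM in DMSO and at 413, 119, 242 and 988 CPM after bleomycin, a log2 fold change of 4.15 (SE 0.87, edgeR adjusted p = 0.000811). No STC1 library overlapped between DMSO and senescence in either line.

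PAPPA, the protease of IGFBP4, differed between models. In IMR90 it was at 63.8, 85.9, 78.7 and 77.3 CPM in DMSO and at 193, 282, 272 and 543 CPM after bleomycin, where PAPPA rose by 2.04 (SE 0.26, edgeR adjusted p = 4.93e-06). In ER:RAS it was at 66.0, 39.2 and 45.3 CPM in DMSO and at 24.9, 33.2 and 50.2 CPM in OIS, which overlapped, with a log2 difference of -0.56 (edgeR adjusted p = 0.296). The difference between models was -2.55 for PAPPA (edgeR adjusted p = 4.46e-05), -1.48 for the other stanniocalcin STC2 (edgeR adjusted p = 0.000194) and 1.98 for the protease ADAM12 (edgeR adjusted p = 3.17e-06). PAPPA2, at 0.127 to 0.598 CPM in the DMSO control libraries, rose by 2.50 in OIS and by 2.29 after bleomycin.

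Among other receptors, INSR, the insulin receptor, fell by 2.06 in OIS (edgeR adjusted p = 0.00251) and by 1.25 after bleomycin (edgeR adjusted p = 0.000107). LRP1 fell by 1.13 in OIS, and LRP2 rose by 6.35 after bleomycin. These were 2 of 4 receptors tested in OIS and 2 of 5 after bleomycin. Of 7 receptor adaptors, 3 rose and 2 fell in each model. SHC1 (1.59 and 0.81) and GRB2 (0.69 and 0.48), which lead to RAS, rose in OIS and after bleomycin, and IRS2 (-1.61 and -0.99) and GAB1 (-1.72 and -1.79) fell. The third adaptor that rose was GRB10 in OIS (1.44) and SOCS2 after bleomycin (1.13). Of the 20 PI3K, AKT, FOXO and mTOR genes, 1 rose and 3 fell in OIS, and 2 rose and 4 fell after bleomycin, against 35.7% and 31.2% of all genes called in either direction. FOXO4 (-1.36 and -0.92) and TSC1 (-0.95 and -0.54) fell in both, while PIK3CD rose in OIS (1.57) and fell after bleomycin (-0.67).

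Other proteins share the IGFBP domain without being IGF carriers. In OIS, ESM1 rose and the other 7 of 8 tested fell, with CCN4 (-4.50), CCN5 (-3.90), KAZALD1 (-3.19) and CCN2 (-1.79) lowest. After bleomycin, ESM1 (1.90), CCN3 (1.23), CRIM1 (0.74) and CCN1 (0.55) rose and CCN5 (-2.32) and KAZALD1 (-1.33) fell. ESM1, a secreted proteoglycan, was at 1.38, 0.634 and 2.12 CPM in ER:RAS DMSO and at 32.8, 57.9 and 75.7 CPM in OIS, a log2 fold change of 5.21 (SE 0.63, edgeR adjusted p = 1.2e-05). Of 4 tested genes of the IGF2 RNA-binding proteins and the H19 locus, IGF2-AS (4.66) and IGF2BP1 (0.40) rose in OIS, and 0 of 3 were called after bleomycin. H19 was listed at 0 in all 42 libraries. Over the 51 pathway genes tested, edgeR called 0 of 396 values in the knockdown comparisons and 0 of 198 differences of senescence effects between shRNAs, with 5 and 2 at an unadjusted p below 0.05.

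For each gene, the genes with the most similar pattern over the 12 group means were found among 10496 others with at least 100 counts on average. IGFBP7 was most like AKR1B1 (Pearson r = 0.994), CDKN1A (0.994) and TFPI2 (0.993). IGFBP3 was most like BNIP3 (0.996), IGF1R like TRANK1 (0.998), IGF2 like SPATS2 (0.987) and IGFBP6 like MRPL20-AS1 (0.988). IGFBP2 was most like HSBP1L1 (0.984), KRT19 (0.983) and SFRP1 (0.981). For IGFBP4 and IGFBP5 the closest were HOXB-AS1 (0.966) and GPR137B (0.936). Among the 10 genes themselves, the closest pair was IGFBP2 with IGFBP6 (0.948), and IGF1R was opposite to IGFBP3 (-0.946) and to IGF2 (-0.941). Strand handling limits the values of the antisense genes MRPL20-AS1 and HOXB-AS1 too. All correlations here rest on 12 points that share libraries and cell lines.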

How the data were processed

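Poly(A) RNA of 42 libraries was analysed from a table of raw read counts per gene symbol, deposited by the authors without normalization. The submitters' processing notes name hg38, STAR 2.7.8a, DRAGEN and DESeq2 1.32.0, whereas the study's methods name another aligner and hg19, so the build and aligner of the counts are uncertain. The counting mode is not given in the sources used here.

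Groups were taken from the labels, and depth per library is given above. Genes passing filterByExpr by group were kept, TMM gave the scaling, and two-sided tests used the quasi-likelihood F-test (robust) of edgeR 4.0.16 in R 4.3.3, in a fit of 18 ER:RAS libraries (14297 genes), of 24 IMR90 libraries (14783 genes) or of all 42 (15299 genes). The p-values were adjusted after Benjamini-Hochberg across every gene of a fit, with the threshold at 0.05. Levels are counts per 1000000 (CPM) after TMM scaling. Intervals are 95%. A floor of 3 counts was used for undetected genes. Floors cover counting error of the undetected group only, since reads carry no molecular identifiers. Counts of the detected group were taken as observed. CPM was divided by the length of the canonical transcript for comparison between genes. The scripts were tested on simulated counts in which 200 genes were changed. In OIS with the control shRNA 5098 genes were called, and the adjustment is stricter where fewer genes change. For senescence against DMSO, the shares recovered are therefore not the power of the real comparisons. For OIS against DMSO with the control shRNA, edgeR recovered 6% of 2-fold and 70% of 4-fold changes. For shRNA 1 against the control shRNA in OIS it recovered 6% and 67%. For bleomycin against DMSO with the control shRNA it recovered 60% and 95%.

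The 10 genes, the pathway lists and the marker lists were chosen with earlier results of these data known. All 10 genes are named in every comparison; of the other lists, up to 6 called genes per list and comparison by absolute log2 fold change, and for each gene up to 3 with the most similar group means. Symbols, coordinates and promoters are from RefSeq GRCh38.p14, which matched 26986 of 28266 symbols.

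Replicate numbers were checked for pairing by correlating the deviations of same-numbered libraries from their group means. The 49 correlations ran from -0.55 to 0.85, and every pair was over 0.1 in OIS against DMSO with either COPB2 shRNA and in the knockdown comparisons of IMR90, where a block by replicate number changed no call of the 10 genes. Alternatives were DESeq2 size factors, no filter, the Wald test of DESeq2 1.42.0, only the libraries compared, the replicate block and leaving out each library. A correction for GC content and length, by a spline with 5 degrees of freedom, was added after the data were seen.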

Additional observations from a re-analysis of the deposited data

Results flagged for a closer look

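In 55 combinations of a gene and a group of 4 libraries, 6 libraries lay further from the others than Dixon's 95% critical value, and chance gives about 1 in 20. IGF1R was at 71.9 CPM after bleomycin in replicate 2 with shRNA 1, against 43.7 to 48.1 CPM in the other 3 libraries. In IMR90 DMSO with shRNA 1, replicate 1 was high for IGFBP2 (409 CPM against 257 to 280) and for IGFBP4 (2140 CPM against 1280 to 1420). IGFBP3 was low in replicate 4 of IMR90 DMSO with shRNA 2, at 30.5 CPM against 39.5 to 41.1 CPM. IGF1 was at 0.709 CPM (13 counts) in replicate 3 after bleomycin with shRNA 2, against 0.0475 to 0.146 CPM, and at 0.754 CPM (15 counts) in replicate 3 of IMR90 DMSO with shRNA 1, against 0.329 to 0.374 CPM. The IGF1 values rest on few counts.

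The effect of senescence differed between OIS and bleomycin for 6 genes, as log2 differences in edgeR's quasi-likelihood test: 2.18 for IGF2, 1.65 for IGFBP3, 1.15 for IGFBP5, -1.35 for IGF1R, -1.97 for IGFBP6 and -2.85 for IGFBP2. The adjusted p-values were 0.0239, 0.013, 0.0284, 0.00173, 0.00982 and 0.000267. Inducer and cell line cannot be told apart in these differences.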

How the results depend on the processing

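The 38 calls of the 10 genes had 528 values under the alternatives, of which 478 kept the call in the same direction, 50 lost it and 0 turned. The 133 values that were not called had 2003, of which 36 were called. The count of genes called in OIS with the control shRNA fell from 8 to 5 with only the libraries compared, where IGFBP4, IGFBP5 and IGFBP6 were lost. After bleomycin with shRNA 1 it went from 2 to 5 with the replicate block, with only the libraries compared and with the GC and length correction. With that correction 1 gene was called with shRNA 1 and 2 with shRNA 2 in OIS against the control shRNA, in place of 0. DESeq2's Wald test called 1 gene between lines in DMSO, in place of 0. The causes were not tested. Leaving out 1 library gave 6 to 7 calls in OIS with the control shRNA, 5 to 6 with shRNA 1 and 6 with shRNA 2. After bleomycin it gave 1 to 4 (1 without bleomycin replicate 2), 2 to 4 and 5 to 7, and for the difference between models 4 to 6. For the knockdown comparisons and their differences it gave 0. DESeq2 size factors moved the log2 fold changes of the tested genes of the 10 by a median of 0.13 in OIS with the control shRNA. Elsewhere this median shift was less than 0.1.

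The replicate numbers paired the libraries only in part: in 34 of 49 checks a library correlated best with its own number, which is a hint from the data and not the design. With the replicate block, edgeR called 44 genes in place of 20 with shRNA 1 in OIS, 76 in place of 32 with shRNA 2, 28 in place of 11 with shRNA 2 after bleomycin, 3 in place of 1 with shRNA 1 after bleomycin, and 202 in place of 53 between lines. The Wald test gave 50, 74, 35, 1 and 168 in that order and the GC and length correction 88, 189, 52, 1 and 170. For the differences of the OIS effect between shRNAs, 0 became 4 and 4 with the block and 8 and 12 with the Wald test. The correction raised calls in OIS with the control shRNA from 5098 to 7935, and between models from 3101 to 5558. The replicate block also brought IGFBP6 past the threshold after bleomycin with the control shRNA (0.71, edgeR adjusted p = 0.0302), and IGF1 (-1.46) and IGFBP5 (-0.72) with shRNA 2.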
